A study of Mus musculus with 14 samples.

Results

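Levels of the AP-1 and immediate early genes were followed across 12 bulk RNA libraries of mouse gastric tumours: Fos, Fosb, Fosl1 and Fosl2, Jun, Junb and Jund, Egr1, Atf3 and Zfp36. They were chosen by gene symbol, which gave 10 of the 24421 entries of the deposited count tables. The tumours had been grown from transplants for 2 months, placed subcutaneously (beneath the skin) or orthotopically (in the native organ), and about 1 cm3 of tissue was sequenced. There were 4 groups of 3 libraries, with TM, TMP and TMPC tumours at the subcutaneous site and TMPC tumours at the orthotopic site. What these letters stand for is not given in the labels, so no gene or allele can be named for them. The labels give neither the strain, age nor immune state of the host mice. Whether each replicate is a mouse of its own is not stated, so the p-values cover the variation among libraries, part of which may be technical.

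AP-1 is a transcription factor made of a pair of basic leucine zipper proteins. Jun proteins can pair with each other or with Fos proteins, while Fos proteins need a partner of the Jun family. Immediate early genes are transcribed within minutes of a growth factor, stress or injury signal without new protein synthesis, mostly through serum response factor with its ternary complex partners and through CREB, and their mRNAs are short-lived. In stomach epithelium they are known to respond to growth factors and to mucosal injury. They can also be induced while a tissue is handled, and the labels do not say how long the tissue was held before RNA extraction.

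Promoter sequences are shown for 4 of the genes whose levels the results turn on or are set against. They come from RefSeq on GRCm38.p6, where 8 of the 10 genes had an entry and Fosl1 and Egr1 had none. Each is written 5′ to 3′ on the strand of its gene. Capitals mark a CArG box (the serum response factor element), TGACGT (the core of the CREB element) or TGACATCA (a variant of the AP-1 and CREB element that was added to the search after the sequences were seen). For Fos (chr12:85473760-85473889, plus strand), Jun (chr4:95052223-95052352, minus strand) and Junb (chr8:84978749-84978878, minus strand) the 130 bases before the start are given. For Zfp36 (chr7:28379267-28379296, minus strand) 30 bases around the CArG box are given, which lie upstream of the RefSeq start but inside the longer GENCODE gene model.
Fos: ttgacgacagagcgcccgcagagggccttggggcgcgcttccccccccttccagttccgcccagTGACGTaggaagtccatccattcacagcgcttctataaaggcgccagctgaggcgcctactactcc
Zfp36: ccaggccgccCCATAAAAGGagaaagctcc
Junb: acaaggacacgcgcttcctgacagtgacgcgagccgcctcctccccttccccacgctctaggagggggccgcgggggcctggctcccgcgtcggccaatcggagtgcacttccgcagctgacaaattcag
Jun: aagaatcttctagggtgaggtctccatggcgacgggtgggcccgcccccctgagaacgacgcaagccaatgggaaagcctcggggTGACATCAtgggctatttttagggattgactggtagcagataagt

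In the 250 bases before the start, searched on both strands, the CArG box was found in 1 of the 8 members, Zfp36, and in 1.47% of 32851 promoters. TGACGT was found in 2 of 8, Fos and Atf3, and in 6.47% of promoters, and TGACATCA in 1 of 8, Jun, and in 2.93%. The AP-1 element TGACTCA (4.46% of promoters) and the full CREB element TGACGTCA (1.55%), which contains TGACGT, were found in none of the 8. The Egr1-type element GCGNGGGCG was found in Fosb, Fosl2 and Zfp36 (4.7% of promoters), and the Sp1-type element GGGCGG, which can overlap it, in 6 of 8 (32.7%). TATAAA was found only in Fos (12.4%) and CCGGAA only in Zfp36 (12%) among the 8. These matches describe the letters in this window only. As for Zfp36, the windows of Fosl2 and Atf3 lie upstream of the RefSeq start but inside the longer GENCODE gene model. Bases further upstream were not searched, so a missing match does not mean that a gene lacks the element.

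Total counts per library ranged from 16584781 to 21107310. Levels are given in CPM, that is, per library total, after TMM scaling. All 10 members passed the filter on low counts in both fits, of 15277 genes tested over the 9 subcutaneous libraries and 15123 over the 6 TMPC libraries. Replicate 2 of the TM group stood apart from its group and went against the label of a gastric epithelial tumour in several markers. It had 0 CPM of Sox2 against 180 and 241 CPM in the other TM libraries, 53.2 CPM of the epithelial gene Epcam against 460 and 532, and 0 counts over 4 Y-linked genes. It also held the highest sums of macrophage, neutrophil, T and NK cell, B and plasma cell, endothelial and adipocyte markers of the 12 libraries. Replicate 1 of the subcutaneous TMPC group had 116 CPM of Epcam against 632 and 667 in the others of that group, and replicate 3 of the orthotopic group had 3039 CPM of the liver gene Alb. Genes named for single libraries were chosen after their values were seen. For members and other named genes, calls that were lost without 1 of these libraries are given with and without it. Correlations between genes are given with all libraries only. Shares of all genes printed beside the lists below are also those with all libraries. The number of all genes at an adjusted p under 0.05 in edgeR itself moved when a library was left out. Without TM replicate 2 it was 4885 in place of 4239 in TMP against TM, and 6390 in place of 5469 in TMPC against TM. A list count without 1 library can therefore follow the number of all genes called.

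The genes lie on 8 chromosomes of mm10 in the GENCODE M21 annotation and all code for protein. Fos spans chr12:85473890-85477273, Zfp36 chr7:28376784-28380253, Junb chr8:84974484-84978718, Fosl1 chr19:5447547-5455946 and Egr1 chr18:34859823-34864984. Jun and Jund have 1 exon each. Because the use of strand in counting is not given in the sources used here, reads of genes that overlap on the opposite strand cannot be told apart. Fosl1 shares 1163 exon bases with Ccdc85b, Jund 877 with Gm11175, Jun 232 with Junos, Junb 173 with Prdx2 and Zfp36 125 with Gm44710, so these levels are uncertain to that extent.

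Fos, the founding member of its family and a classical immediate early gene, was high in 2 of the 4 groups. It stood at 159, 111 and 72.5 CPM in the TM libraries, at 38.0, 28.1 and 34.99 in TMP, at 20.1, 31.3 and 26.4 in subcutaneous TMPC and at 108, 92.4 and 72.8 in orthotopic TMPC. Every TM and orthotopic library lay above every TMP and subcutaneous TMPC library. The means were 114 ± 43.2 (SD, n = 3), 33.7 ± 5.07, 25.9 ± 5.63 and 91.1 ± 17.7 CPM.

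Zfp36 encodes tristetraprolin, which binds AU-rich elements of cytokine and early response mRNAs and speeds their decay. It was measured at 126, 322 and 86.0 CPM in TM, 35.3, 44.3 and 48.6 in TMP, 26.6, 25.9 and 29.7 in subcutaneous TMPC and 72.8, 69.3 and 72.0 in orthotopic TMPC. The 4 groups did not overlap. The highest value was that of TM replicate 2.

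Junb, which forms AP-1 with weaker activity than Jun on many promoters, was measured at 224, 333 and 223 CPM in TM, 197, 191 and 236 in TMP, 127, 144 and 163 in subcutaneous TMPC and 310, 326 and 330 in orthotopic TMPC. The subcutaneous TMPC libraries were the 3 lowest of the 12. Its standard deviation of log2 CPM within groups, 0.19, was at the 13.9th percentile of 15880 genes, the lowest of the 10 members, and the highest was that of Fosl1 (0.88, 74.8th percentile).

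Fosl1 encodes Fra-1, a Fos protein without the transactivation domain of Fos that is often abundant in invasive carcinoma. It was close to absent from TM, with 0.313, 0.345 and 0.181 CPM from 6, 5 and 4 counts. The TMP libraries had 3.67, 1.98 and 2.51 CPM, the subcutaneous TMPC libraries 5.94, 1.31 and 1.54, and the orthotopic libraries 0.639, 1.40 and 3.56. All 9 other libraries lay above the 3 of TM. Ccdc85b, which overlaps Fosl1 on the other strand, was also lowest in TM, at 12.3 to 19.8 CPM against 21.9 to 40.0 CPM in the other libraries.

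Egr1, a zinc finger factor induced through serum response factor, stood at 132, 147 and 75.1 CPM in TM, 49.99, 43.7 and 48.7 in TMP, 150, 38.9 and 39.1 in subcutaneous TMPC and 69.8, 105 and 55.7 in orthotopic TMPC. The subcutaneous TMPC group held both the highest and the lowest library of the 12. The high one, replicate 1, was also the highest of the 12 for Fosl1 and the lowest for Fos, Fosl2, Jun, Junb, Jund and Atf3.

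The remaining 5 members had overlapping groups over most of the comparisons. Fosl2, which encodes Fra-2, ranged from 117 to 364 CPM. Jun, the partner with the strongest transactivation, ranged from 134 to 309 CPM, and Jund, the Jun protein that is expressed in resting cells, from 130 to 313 CPM. Jund differed little among the TM libraries, at 227, 226 and 228 CPM. Fosb was the second lowest member, at 3.18 to 13.4 CPM, with the highest value in TM replicate 1. Atf3, a stress-induced repressor that pairs with Jun, ranged from 10.5 to 54.5 CPM and varied within TMP alone from 13.2 to 54.5 CPM.

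**Figure D1:**
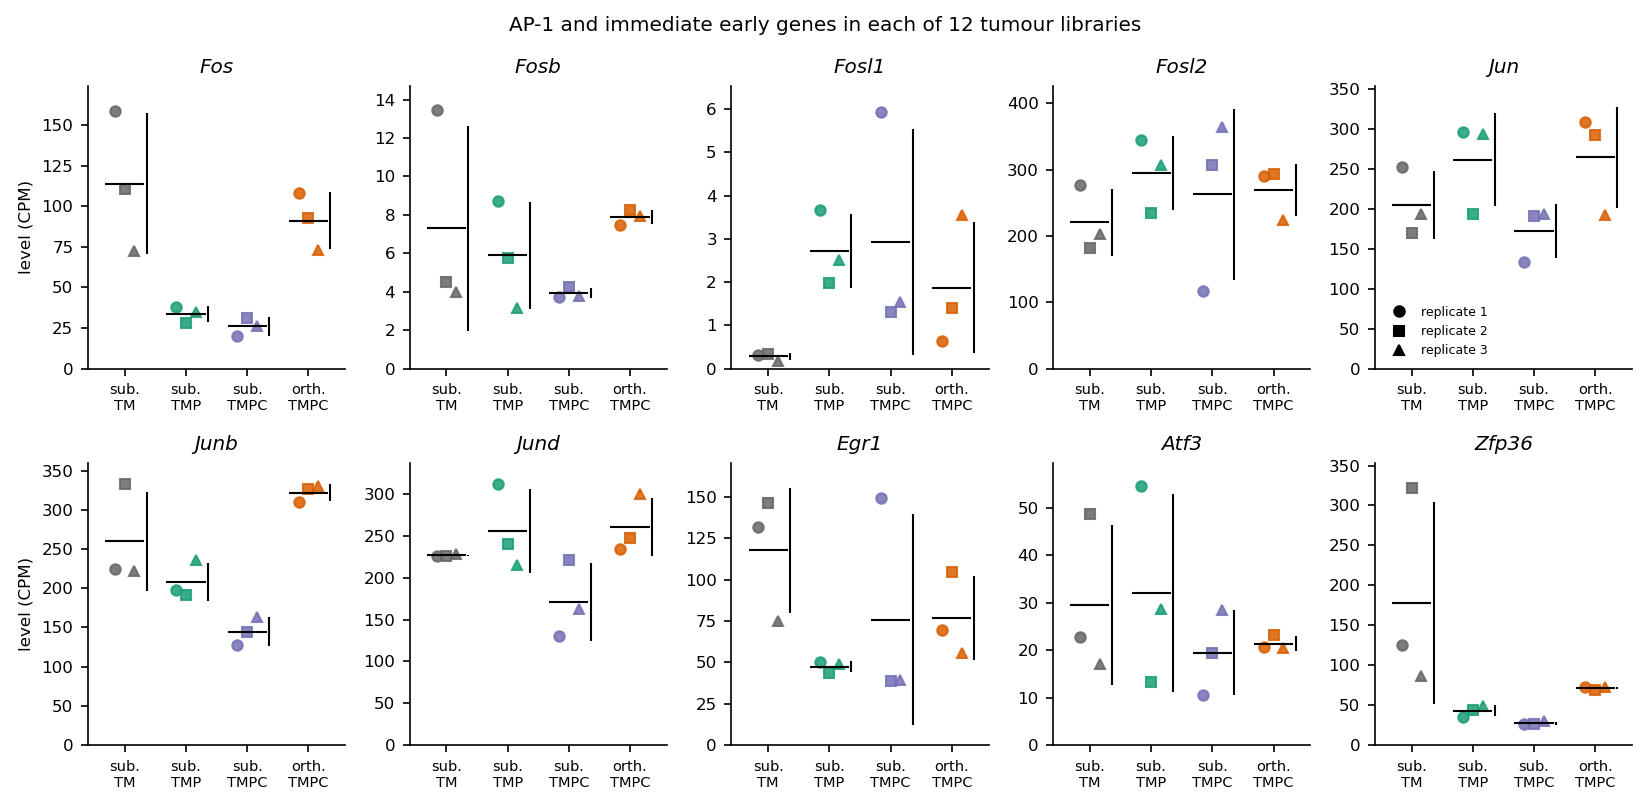
CPM on a linear axis from 0 for each of the 10 members (panels) in the 4 groups (horizontal axis); circles, squares and triangles are replicates 1, 2 and 3, horizontal bars are means and vertical bars reach 1 SD to each side of the mean over 3 libraries. For Fos, the TM and orthotopic libraries lie between 72.5 and 159 CPM and the TMP and subcutaneous TMPC libraries between 20.1 and 38.0 CPM.

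The first comparison set subcutaneous TMP against subcutaneous TM tumours. Fos and Zfp36 fell and Fosl1 rose, while the other 7 members did not pass the test. Fos was 3.51-fold lower in TMP, with a log2 fold change of -1.81 ± 0.30 (SE) and an adjusted p of 0.00594 in edgeR's quasi-likelihood test. Zfp36 was 4.37-fold lower (-2.13 ± 0.46, adjusted p = 0.0145), and Fosl1 was 9.26-fold higher (3.21 ± 0.72, adjusted p = 0.0166). Of all genes tested, 27.7% passed, 14.3% higher and 13.4% lower in TMP, so that 3 of 10 is near the background. The members' median log2 fold change was -0.15 and that of all genes -0.07.

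Leaving out TM replicate 2 gave -1.81 for Fos, -1.34 for Zfp36 and 3.41 for Fosl1, with adjusted p-values of 0.00623, 0.00358 and 0.0213. Without TMP replicate 1, Zfp36 and Fosl1 had adjusted p-values of 0.0595 and 0.0587, and Fos was the 1 member left past the threshold. Egr1 was lower in all 3 TMP libraries than in any TM library, with a log2 fold change of -1.37 ± 0.54 and an adjusted p of 0.0878. Groups that do not overlap were found for 50.6% of genes here and for 4 of 10 members. The Egr1 call depended on the fit, with adjusted p-values of 0.0417 in DESeq2, 0.0255 with the TM and TMP libraries alone and 0.0114 without subcutaneous TMPC replicate 1, the library in which Egr1 was high.

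Macrophage markers moved in the same direction as Fos and Zfp36. In TMP, 6 of 7 macrophage markers fell, and their summed level was 3203 to 6313 CPM in TM against 627 to 1232 CPM in TMP. Neutrophil markers fell for 4 of 5 (3 of 5 without TM replicate 2), from sums of 116 to 3441 CPM to 23.8 to 45.5 CPM. T and NK cell markers fell for 3 of 4 (1 of 4 without TM replicate 2), B and plasma cell markers for 1 of 2 and fibroblast markers for 1 of 6. The B and plasma cell sum was 4.43, 2747 and 7.76 CPM in the TM libraries, so its height in TM lay in replicate 2. Of the skeletal muscle markers 1 of 5 rose (0 of 5 without TM replicate 2). The sum of 5 epithelial markers was 224 to 4023 CPM in TM and 2495 to 3719 CPM in TMP, and 0 of 5 passed. The part of these cells in the members' levels was not tested. In bulk tissue, fewer cells of a type and less RNA per cell cannot be told apart. Xist stood at 189 to 1435 CPM in TM and at 13.4 CPM or less in the other 9 libraries, so the sex composition of the tissue and the TM group cannot be told apart.

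Against the same TM libraries, subcutaneous TMPC tumours had lower Fos, Zfp36 and Junb and higher Fosl1. Fos was 4.59-fold lower (log2 fold change -2.20 ± 0.30, adjusted p = 0.002 in edgeR), Zfp36 6.85-fold lower (-2.78 ± 0.47, adjusted p = 0.00412) and Junb 1.88-fold lower (-0.91 ± 0.21, adjusted p = 0.0125). Fosl1 was 9.93-fold higher (3.31 ± 0.73, adjusted p = 0.0108). These are 4 of 10 members where 35.8% of all genes passed, 18.0% higher and 17.8% lower. The median log2 fold change of the members was -0.68, with 8 of 10 below 0, and that of all genes was -0.07.

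All 4 calls held with each of the 9 libraries left out in turn. Without TM replicate 2 the values were -2.18 for Fos, -1.97 for Zfp36, -0.65 for Junb and 3.52 for Fosl1. Without TMPC replicate 1, which had the highest Fosl1 level, Fosl1 was at 2.33 ± 0.51 (adjusted p = 0.0168). Egr1 did not pass with all libraries (-0.70 ± 0.53, adjusted p = 0.324) and passed without that replicate (-1.60 ± 0.28, adjusted p = 0.00882). Jund was lower in all 3 TMPC libraries than in TM but did not pass (-0.47 ± 0.22, adjusted p = 0.124). It was 1 of 5 members whose groups did not overlap, where 47.5% of all genes had such groups. Macrophage markers again fell for 6 of 7, to a sum of 730 to 1374 CPM. Neutrophil markers fell for 5 of 5, T and NK cell markers for 3 of 4 and B and plasma cell markers for 2 of 2. Without TM replicate 2 they fell for 4 of 5, 3 of 4 and 1 of 2. Without TMPC replicate 1 they fell for 2 of 5, 0 of 6 and 0 of 4, where more lymphocyte markers passed the filter on low counts. Fibroblast markers fell for 1 of 6 (4 of 6 without TM replicate 2), endothelial markers for 1 of 5 (0 without either library), and skeletal muscle markers rose for 2 of 5. The part of these cells in the members' levels was not tested. Both comparisons share the TM libraries, so their likeness is not a separate result.

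No member differed between subcutaneous TMPC and TMP by edgeR's adjusted p, nor did any of the 15277 genes (0.00%). At an unadjusted p under 0.05 there were 465 genes (3.04%) and 3 members, and DESeq2 called 16 genes and 0 members. The 3 members were the Jun family. Jun had a log2 fold change of -0.61 ± 0.23, Junb of -0.53 ± 0.21 and Jund of -0.59 ± 0.22, each with an adjusted p of 0.9999. Groups that do not overlap were found for 12.5% of genes and for 3 members, Jun, Junb and Zfp36, all lower in TMPC. Fosl1 was at 0.10 ± 0.64 and Fos at -0.39 ± 0.29. Several values here depended on TMPC replicate 1, without which Fosl1 was at -0.93, Fosl2 at 0.19 in place of -0.18 and Egr1 at -0.28 in place of 0.67. That library was also the lowest of all for Jun, Junb and Jund, and Jun was at -0.44 without it. With any library left out, Junb ranged from -0.62 to -0.42 and Jund from -0.78 to -0.40.

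At the 2 sites of growth, orthotopic TMPC tumours had higher Fos, Zfp36, Junb and Fosb than subcutaneous TMPC tumours. Fos was 3.68-fold higher (log2 fold change 1.88 ± 0.24, adjusted p = 0.00905 in edgeR), Zfp36 2.73-fold (1.45 ± 0.14, adjusted p = 0.00755) and Junb 2.33-fold (1.22 ± 0.15, adjusted p = 0.00872). Fosb was 2.10-fold higher (1.07 ± 0.30, adjusted p = 0.0423), from 3.75, 4.25 and 3.79 CPM to 7.49, 8.23 and 7.96 CPM. These 4 of 10 compare with 27.8% of all genes, and the 4 that rose with 14.0%. The median log2 fold change of the members was 0.68 and that of all genes 0.05, and 9 of 10 members were above 0. The same subcutaneous TMPC libraries served in the comparisons with TM and with TMP. Opposite signs there and between the sites are therefore not separate results.

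Fos, Zfp36 and Junb passed with each of the 6 libraries left out in turn, whereas Fosb passed in none of those 6. Without orthotopic replicate 3, the library with liver RNA, Fos was at 2.01, Zfp36 at 1.43 and Junb at 1.19. Without subcutaneous TMPC replicate 1 they were at 1.71, 1.41 and 1.12. Jund was higher in all 3 orthotopic libraries (0.67 ± 0.23, adjusted p = 0.0681), and Jun (0.68 ± 0.25, adjusted p = 0.0798) overlapped between the sites. Groups that do not overlap with the orthotopic libraries higher were found for 22.3% of genes and for 5 members. DESeq2 called both Jun (adjusted p = 0.0465) and Jund (0.0349). Egr1 had a log2 fold change of 0.09 ± 0.57 with all libraries and 1.02 ± 0.29 (adjusted p = 0.059) without subcutaneous TMPC replicate 1.

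Other tissue differed between the sites as well. The stomach mucosa gene Gkn1 was at 1491, 1958 and 1324 CPM in the orthotopic libraries and at 0.451 CPM or less in all 9 subcutaneous libraries, and the parietal cell gene Atp4b was at 2.48 to 50.3 CPM against 0.138 CPM or less. Epithelial markers rose for 2 of 5, from sums of 928 to 3079 CPM to 4016 to 6871 CPM, and for 1 of 5 without subcutaneous TMPC replicate 1. Macrophage markers rose for 2 of 7, from 730 to 1374 CPM to 1502 to 2227 CPM, and smooth muscle markers for 2 of 5, from 172 to 433 CPM to 522 to 1389 CPM. Fibroblast markers rose for 2 of 6, from 3594 to 5528 CPM to 6418 to 18670 CPM. B and plasma cell markers rose for 2 of 3 (0 of 3 without subcutaneous TMPC replicate 1), neutrophil markers for 1 of 5 and endothelial markers for 1 of 5 (0 without orthotopic replicate 3). Skeletal muscle markers fell for 4 of 5, from 20.005 to 191 CPM to 2.44 to 6.22 CPM. The part of these tissues in the members' levels was not tested.

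**Figure D2:**
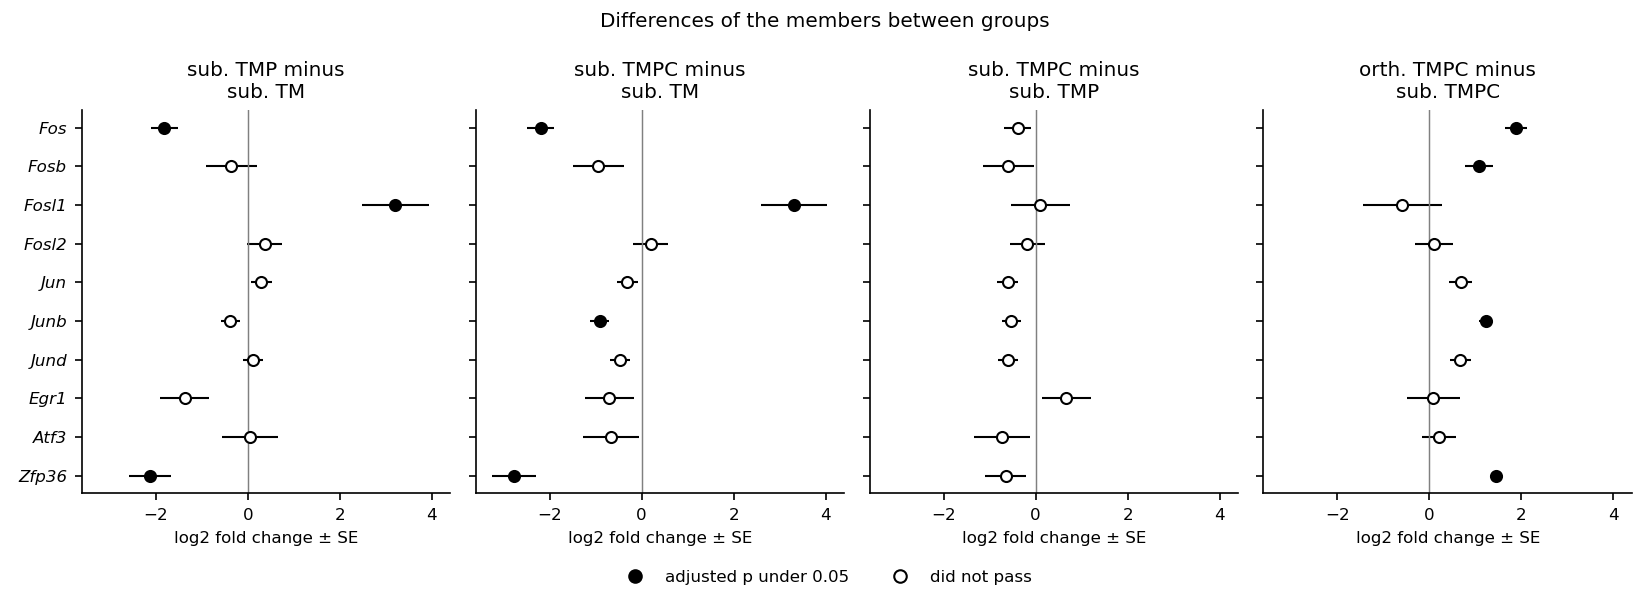
Log2 fold change (horizontal axis) with its SE for the 10 members in the 4 comparisons (panels); filled points passed an adjusted p of 0.05 in edgeR. Fos and Zfp36 lie left of 0 in both comparisons with TM and right of 0 between the sites, and no member passed between TMPC and TMP. The panels share libraries: TM in both comparisons with TM, and subcutaneous TMPC in every panel but the first.

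Levels of different genes were compared per length, as CPM per kilobase of the principal transcript. In TM, Junb and Jund were the highest members at 144 ± 34.9 and 136 ± 0.65 CPM per kb (SD, n = 3), and did not differ beyond their spread. Jun (64.4 ± 13.3), Zfp36 (63.8 ± 45.3) and Fos (54.1 ± 20.5) followed with overlapping libraries, then Fosl2 (33.7 ± 7.64) and Egr1 (26.3 ± 8.42), which overlapped too. The place of Zfp36 rests on TM replicate 2, at 115 CPM per kb against 45.0 and 30.8 in the other TM libraries, both below the Fos mean. Atf3 (14.9 ± 8.53), Fosb (1.93 ± 1.41) and Fosl1 (0.15 ± 0.05) were lowest. In subcutaneous TMPC the order at the top was Jund (103 ± 27.9), Junb (80.0 ± 10.0), Jun (54.2 ± 10.6) and Fosl2 (40.2 ± 19.8), with Fos at 12.3 ± 2.67 CPM per kb.

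The make-up of the Fos family differed between groups. Fos made up 62.1%, 64.3% and 51.7% of the family's level per length in TM, 24.0%, 25.8% and 25.3% in TMP, 30.1%, 23.4% and 17.9% in subcutaneous TMPC and 52.3%, 47.9% and 47.4% in orthotopic TMPC. Fosl2 made up 38.5% ± 6.98 in TM, 70.3% ± 1.11 in TMP, 70.0% ± 11.9 in subcutaneous TMPC and 47.1% ± 1.82 in orthotopic TMPC (SD, n = 3). Thus each TM and orthotopic library had a larger Fos share than each TMP and subcutaneous TMPC library. No p is given for the shares, since with 3 libraries a side the smallest two-sided p of an exact permutation test is 0.1. With the union of all exons as the length, the mean Fos shares were 66.0%, 30.6%, 28.8% and 56.1%. Fosl1 reached 10.1% in subcutaneous TMPC replicate 1 and at most 2.62% in the other 11 libraries.

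The Jun family was more even. Junb made up 41.4% ± 6.92 in TM, 33.0% ± 4.58 in TMP, 34.1% ± 4.30 in subcutaneous TMPC and 42.6% ± 0.64 in orthotopic TMPC, and Jun between 14.3% and 26.2% over the 12 libraries. The summed Jun family level was 344 ± 26.4 CPM per kb in TM, 351 ± 39.4 in TMP, 237 ± 42.3 in subcutaneous TMPC and 417 ± 7.86 in orthotopic TMPC. It exceeded the summed Fos family level in all 12 libraries, by 2.79 to 6.02 times.

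**Figure D3:**
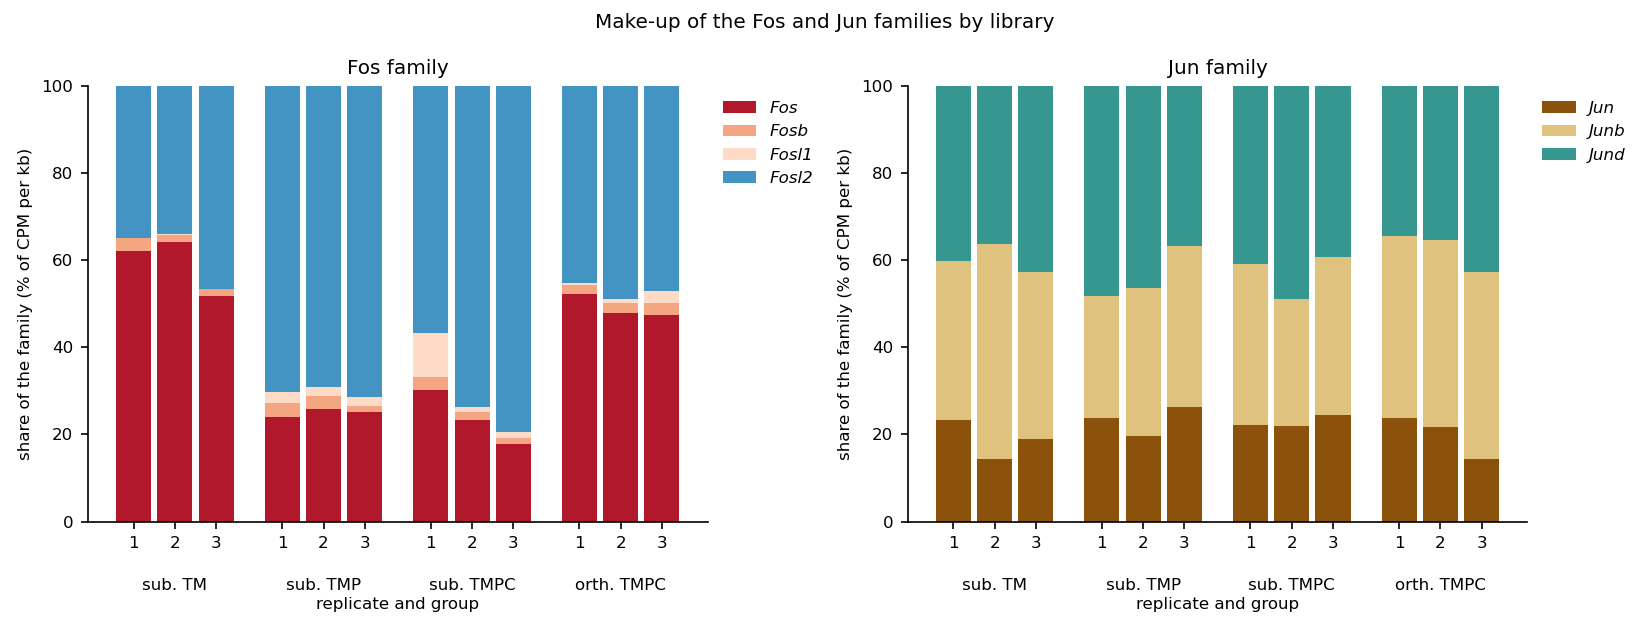
Share of each member in the summed CPM per kilobase of the Fos family (left) and the Jun family (right), in percent, for each of the 12 libraries. Fos takes 47.4% to 64.3% of its family in the TM and orthotopic libraries and 17.9% to 30.1% in the others.

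Across the 12 libraries, log2 levels of Fos and Zfp36 had a Pearson correlation of 0.84 (Spearman 0.87), and Fos and Junb of 0.79 (0.81). After subtraction of group means these were 0.20 and 0.15, so they lay mainly in the differences between groups. Fosl2 and Jun had a correlation of 0.74 that was 0.80 within groups, and Junb and Zfp36 of 0.75 that was 0.83 within groups. Fos and Fosl1 were at -0.70. TM replicate 2 was the highest of the 12 libraries for both Junb (333 CPM) and Zfp36 (322 CPM), and the 0.83 was not computed without it. Without that library the within-group standard deviation of log2 CPM was 0.13 in place of 0.19 for Junb and 0.21 in place of 0.49 for Zfp36. These correlations are descriptions over libraries that share groups, depth and tissue make-up. The genes most like Fos among 12027 were Mdp1, Oas1b, Os9, Rgl3 and Smim14, with correlations of 0.94 to 0.96. Those most like Junb were Fam214b, Optn, Adh1, Filip1l and Hpgd (0.94 to 0.95), and those most like Egr1 were Rassf3, Syt13, Ptprg, Chst15 and Pign (0.88 to 0.90). For Fosl1 they were Srf (0.95), Map1b, Fkbp1a, Mapre1 and Trp53rkb. Egr1 itself was highest in subcutaneous TMPC replicate 1, at 150 CPM against 38.9 and 39.1 in the others of that group. In that group Rassf3 was at 115 ± 118, Syt13 at 34.5 ± 57.7, Ptprg at 36.8 ± 35.8, Chst15 at 24.3 ± 22.7 and Pign at 48.6 ± 15.5 CPM (SD). The Egr1 correlations were not computed without that library. Srf, which encodes serum response factor, was at 68.8 ± 2.82 CPM in TM, 114 ± 13.6 in TMP, 113 ± 13.8 in subcutaneous TMPC and 101 ± 18.8 in orthotopic TMPC (SD, n = 3).

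Of the other immediate early genes, 4 of 36 rose and 0 fell in TMP against TM, and 6 rose and 2 fell without TM replicate 2. With 14.3% and 13.4% of all genes rising and falling, this is near or below the background. Among them Arc, a synaptic gene induced by serum, rose from 7.66, 4.90 and 10.3 CPM in TM to 52.3, 34.4 and 46.8 CPM in TMP (2.49 ± 0.48, adjusted p = 0.00988 in edgeR). Klf10, a TGF-beta-induced zinc finger gene, rose by 0.75 ± 0.16 and the small GTPase gene Rhob by 0.83 ± 0.22. In TMPC against TM 4 rose and 5 fell of 36, near or below the 18.0% and 17.8% of all genes, and 4 rose and 2 fell without TMPC replicate 1. Ier2 was at -0.52 ± 0.13 and Klf2, a Krüppel-like factor of endothelium and lymphocytes, at -2.47 ± 0.68, or -1.16 without TM replicate 2, which had 100 CPM of Klf2 against 18.0 and 20.7. Klf2 did not pass without TMPC replicate 1 (adjusted p = 0.0539).

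Between the sites 8 of 37 rose and 1 fell, where 14.0% of all genes rose, and 4 rose and 1 fell without either subcutaneous TMPC replicate 1 or orthotopic replicate 3. Without orthotopic replicate 3, all genes past the threshold numbered 4789 in place of 4204. Phlda1, a gene induced by growth factor signals, rose from 74.2, 53.1 and 54.6 CPM to 170, 152 and 163 CPM (1.48 ± 0.17, adjusted p = 0.00868 in edgeR) and passed with each of the 6 libraries left out. Cyr61, a matrix protein gene, rose by 1.12 ± 0.24. Socs3, a feedback inhibitor of cytokine signalling, rose by 1.30 ± 0.31, and Dusp1, a MAP kinase phosphatase, by 1.26 ± 0.32 (adjusted p = 0.0281 and 0.0324). Without subcutaneous TMPC replicate 1 Socs3 and Dusp1 had adjusted p-values of 0.0593 and 0.0705, and Dusp1 had 0.0608 without orthotopic replicate 3.

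Of 25 upstream kinases and serum response factor genes, 2 rose and 3 fell in TMP against TM, and 4 rose and 3 fell in TMPC against TM. Without TM replicate 2, 4 rose and 3 fell in TMP. These counts are below or near the 27.7% and 35.8% of all genes that passed in either direction. Srf rose in both (0.68 ± 0.14 and 0.66 ± 0.14), and Mapk9, which encodes the Jun kinase JNK2, fell in both (-0.65 ± 0.16 and -0.70 ± 0.16). Rps6ka3, a ribosomal S6 kinase, fell in TMP (-0.60 ± 0.15). Between the sites 0 of 24 passed in edgeR, and 1 of 24 without either subcutaneous TMPC replicate 1 or orthotopic replicate 3.

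Other bZIP partners included 17 genes, of which 1 rose and 3 fell in TMP and 2 rose and 3 fell in TMPC against TM, below or near the 27.7% and 35.8% of all genes. Without TM replicate 2, 3 rose and 1 fell in TMP and 3 rose and 2 fell in TMPC, and without TMPC replicate 1, 1 rose and 2 fell in TMPC. Maf fell in both (-1.69 ± 0.49 and -1.84 ± 0.49), and without TM replicate 2 it was at -1.06 in TMP (adjusted p = 0.0639, not past the threshold) and at -1.19 in TMPC. Mafg, which encodes a small Maf protein, rose (0.65 ± 0.16 and 0.51 ± 0.16), and did not pass in TMPC without TMPC replicate 1 (adjusted p = 0.0668). Batf2 fell in both, but it was at 83.7 CPM in TM replicate 2 against 3.39 and 2.03 CPM in the other TM libraries and did not pass without it (adjusted p = 0.107 and 0.0732), nor in TMPC without TMPC replicate 1 (0.0595). Atf4, a factor of the integrated stress response, rose in TMPC (0.67 ± 0.22). Between the sites 1 rose and 2 fell, Atf1 (-0.60 ± 0.14) and Atf7 (-0.60 ± 0.17). Atf1 passed in 1 and Atf7 in 0 of the 6 fits with a library left out, with adjusted p-values of 0.0530 and 0.0514 without subcutaneous TMPC replicate 1 and 0.0520 for Atf7 without orthotopic replicate 3.

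Of 20 known AP-1 target genes, 4 rose and 0 fell in TMP against TM, where 14.3% and 13.4% of all genes did, and 7 rose and 0 fell without TM replicate 2. Without that library all genes past the threshold numbered 4885 in place of 4239. In TMPC against TM 4 rose and 3 fell, near the 18.0% and 17.8% of all genes, or 5 and 0 without TM replicate 2 and 4 and 1 without TMPC replicate 1. The collagenase gene Mmp13 rose from 20.2, 13.9 and 36.3 CPM in TM to 308, 258 and 268 CPM in TMP (3.51 ± 0.64, adjusted p = 0.00841 in edgeR), and was at 56.3, 98.2 and 299.6 CPM in TMPC. Mmp10 rose by 4.68 ± 1.27 in TMP and Dnmt1, the maintenance DNA methyltransferase, by 1.51 ± 0.14. Lif, an Il6 family cytokine, fell in TMPC (-1.74 ± 0.52, and adjusted p = 0.0674 without TM replicate 2 and 0.0845 without TMPC replicate 1). Between the sites 4 rose and 1 fell, where 14.0% and 13.8% of all genes did, or 2 and 1 without subcutaneous TMPC replicate 1 and 4 and 3 without orthotopic replicate 3. Areg, which encodes the EGF receptor ligand amphiregulin, rose from 4.09, 0.816 and 1.95 CPM to 48.1, 72.2 and 25.2 CPM (4.47 ± 0.69, adjusted p = 0.0109, and 5.17 without subcutaneous TMPC replicate 1), and Dnmt1 fell (-1.82 ± 0.24, adjusted p = 0.00941).

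Zfp36l1 and Zfp36l2 encode the 2 other members of the tristetraprolin family that were tested. Zfp36l1 was at 446, 335 and 411 CPM in TM against 134, 184 and 147 CPM in TMP and 126, 191 and 143 CPM in subcutaneous TMPC, and fell in both (-1.41 ± 0.21 and -1.44 ± 0.21, adjusted p = 0.00414 and 0.00235 in edgeR). Between the sites it did not pass (0.91 ± 0.31, adjusted p = 0.0692), and passed without orthotopic replicate 3 (1.15 ± 0.23, adjusted p = 0.0185). Zfp36l2 fell in TMPC (-1.40 ± 0.46, adjusted p = 0.0442), and not without TM replicate 2 (adjusted p = 0.0841), and was at -2.13 without TMPC replicate 1. Of 13 mRNAs known as targets of tristetraprolin, 1 rose and 2 fell in TMP and 1 rose and 5 fell in TMPC against TM, where 27.7% and 35.8% of all genes passed. Without TM replicate 2, 2 rose and 1 fell in TMP, with a median log2 fold change of 0.35 in place of -0.92, and 2 rose and 4 fell in TMPC, with a median of -0.25 in place of -1.75. Without TMPC replicate 1, 1 rose and 3 fell in TMPC. Tnf fell in both (-3.18 ± 0.71 and -3.31 ± 0.72, or -2.23 and -2.35 without TM replicate 2). Il1b fell in both (-3.36 ± 0.96 and -4.60 ± 1.02), but without TM replicate 2, which had 394 CPM of it against 71.6 and 61.2, it was at -1.91 in TMP (adjusted p = 0.0656, not past the threshold) and at -3.14 in TMPC. Il23a rose in both (2.62 ± 0.70 and 2.56 ± 0.70). Between the sites 3 of 11 rose, Il1b, Il6 and Lif, where 14.0% of all genes rose, and 0 passed without subcutaneous TMPC replicate 1. The lists share genes: Il6 and Lif are also AP-1 target genes and were counted among those that rose, so these calls are not separate results. Without orthotopic replicate 3 Il1b was at 2.26 in place of 3.63, Il6 at 2.38 in place of 3.97, and Lif had an adjusted p of 0.0716.

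Of 9 heat shock genes, which encode chaperones induced by protein stress, 5 rose in TMP and 6 in TMPC against TM, where 14.3% and 18.0% of all genes rose. Without TMPC replicate 1, 4 rose in TMPC, and without TM replicate 2, 5 rose and 1 fell in each. The summed level of the 9 genes was 2413 to 2715 CPM in TM, 4031 to 5558 CPM in TMP and 4747 to 6987 CPM in subcutaneous TMPC. Hspb1 stood at 188, 22.8 and 214 CPM in TM, 69.0, 120 and 72.7 in TMP and 39.4, 28.9 and 63.1 in subcutaneous TMPC. Hsph1 rose by 2.26 ± 0.52 and 2.78 ± 0.53 and Hspe1 by 1.07 ± 0.18 and 1.30 ± 0.19. Between the sites 1 rose and 1 fell, Hspb1 (1.49 ± 0.35) and Hspe1 (-0.91 ± 0.20), at a sum of 3403 to 4282 CPM in the orthotopic libraries. Hspb1 did not pass without subcutaneous TMPC replicate 1 (adjusted p = 0.0664), which left 0 higher and 1 lower. In TMPC against TMP, 0 genes of these lists passed. By the highest level, Rhob was at -0.08 ± 0.21, Atf4 at 0.13 ± 0.22, Spp1 at -0.62 ± 0.96, Zfp36l1 at -0.03 ± 0.20 and Hspa8 at 0.19 ± 0.27.

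Of the genes of these lists named above as changed, Arc, Klf10, Dnmt1, Mmp13, Zfp36l1 and Hspe1 in TMP against TM passed with each of the 9 subcutaneous libraries left out in turn. In TMPC against TM these were Arc, Dnmt1, Mmp13, Srf, Zfp36l1, Tnf, Il1b, Hspe1 and Hsph1, and between the sites, with 6 libraries, Phlda1 and Dnmt1. The others did not pass without at least 1 library.

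The medians of the neighbouring lists can be set beside those of the members. In the comparisons of TMP with TM, TMPC with TM, TMPC with TMP and orthotopic with subcutaneous TMPC, the members' medians were -0.15, -0.68, -0.56 and 0.68. The same subcutaneous TMPC libraries enter all of these comparisons but the first, so the medians are not separate results. The other immediate early genes had medians of -0.12, -0.43, -0.39 and 0.58, the AP-1 target genes of -0.21, -0.66, -0.47 and 0.73, and all genes tested of -0.07, -0.07, 0.01 and 0.05. Without TM replicate 2 the medians in TMP against TM were 0.00 for the members, 0.24 for the other immediate early genes and 0.53 for the target genes. In TMPC against TM they were then -0.45, -0.01 and 0.13, so that the median of the target genes turned. Between the sites and without orthotopic replicate 3 they were 0.70, 0.39 and 0.14. Without subcutaneous TMPC replicate 1 they were -0.53, -0.34 and -0.60 in TMPC against TM. In TMPC against TMP they were then -0.42, -0.32 and -0.46, and between the sites 0.77, 0.56 and 0.81.

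**Figure D4:**
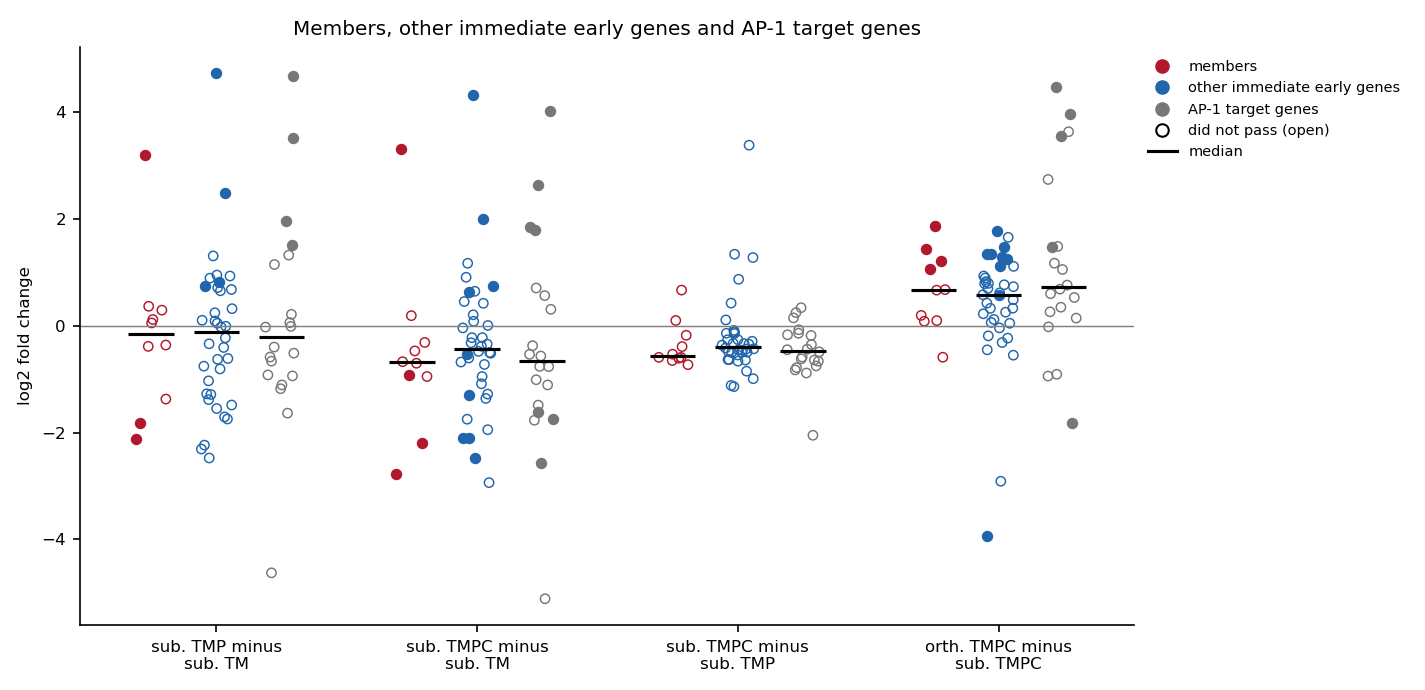
Log2 fold change (vertical axis) of each member, other immediate early gene and AP-1 target gene (points, by colour) in the 4 comparisons; filled points passed an adjusted p of 0.05 in edgeR and bars are medians. The 3 medians lie below 0 in the 3 subcutaneous comparisons and between 0.58 and 0.73 between the sites. These comparisons share libraries, with subcutaneous TMPC in all but the first. Without TM replicate 2, which is not plotted separately, the target genes' median against TM is 0.53 in TMP and 0.13 in TMPC, and without orthotopic replicate 3 it is 0.14 between the sites.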

How the data were processed

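Bulk polyA RNA of 12 tumour samples was sequenced in paired-end mode with 150 bp reads, per the labels' protocols. Sample titles gave the groups and replicate numbers. The submitters' processing notes name STAR 2.6.0, mm10 and DESeq2. How reads were counted, with which annotation and whether by strand is not given in the sources used here. The authors deposited whole-number counts per gene in 2 tables, one of the 9 subcutaneous libraries and one of the 6 TMPC libraries. The authors also deposited normalized counts, a signal that equals counts over each library's size factor per the file headers, and that served only as a check. The authors' log2 fold changes and p-values were not used. The 2 single-cell samples were not analysed here.

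In the subcutaneous table symbols and counts were misaligned from entry 12291 on (12131 of 24421 entries, 1 of the members, Zfp36), so symbols were taken by position from the other table, whose counts for the 3 shared libraries were equal in all 24421 entries. Multiplied by its size factor, the deposited signal matched the counts to within 0.01 reads for 14200 of 24419 entries as deposited and for 24419 after realignment.

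The test was that of edgeR 4.0.16 in R 4.3.3 (glmQLFit, glmQLFTest, TMM, filterByExpr) with Benjamini-Hochberg adjustment over all genes and 0.05 as threshold. One fit held the 9 subcutaneous libraries (6 residual degrees of freedom) and another the 6 TMPC libraries (4). A standard error is the size of the log2 fold change over the root of the F statistic. The steps were tested on simulated counts. CPM used TMM factors over the 12 libraries, and precision is limited by counting error and by 3 libraries a group. A count of 3, the smallest taken as detected, corresponds to 0.142 to 0.181 CPM. Transcript lengths and gene positions come from GENCODE M21. Alternatives were DESeq2 1.42.0, RLE size factors, other filters on low counts, other sets of libraries, the replicate number as a block, and leaving out each library. Counts of list genes without single doubtful libraries, and the union of exons as length, were added after seeing the data.

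The members and gene lists were chosen with earlier results of these data known. All members are named in each comparison. Of each other list, up to 4 genes past the threshold with the smallest adjusted p and a mean of at least 5 CPM could be named, or the 2 with the highest mean CPM where none passed. For Fos, Junb, Fosl1 and Egr1 the 5 genes with the highest Pearson correlation of log2(CPM + 1), at a mean of at least 5 CPM and leaving out predicted genes, are named. Some genes that this rule would name are not reported here.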

Additional observations from a re-analysis of the deposited data

How the results depend on the processing

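Over the alternatives that keep all libraries, 261 of 270 fold changes of members kept their direction and their side of the threshold, 3 lost and 5 gained a call, and 1 changed sign. Leaving out each library in turn, 303 of 330 did so, 8 lost and 3 gained a call, and 16 changed sign, none of which had passed with all libraries. Deviations of same-numbered libraries from their group means had correlations of -0.44 to 0.27 over 18 pairs, and 6 of them were above 0.1. Those of other-numbered libraries were -0.30 to 0.41 over 36 pairs, with 11 above 0.1. Whether same-numbered libraries share a batch or a mouse was not tested.

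Genes past the threshold numbered 3536 in TMPC against TM with those 2 groups alone (5469 in all), 16 in TMPC against TMP with DESeq2 (0), and 6371 between the sites with DESeq2 and 1777 with the replicate block (4204). With the block Fosl1 was at -0.15 in TMPC against TMP. Fosb between the sites had adjusted p-values of 0.0794 with no filter, 0.113 with the block and 0.152 with all 12 libraries in 1 fit, and 0.0579 to 0.138 with a library left out. The cause of these shifts was not tested.

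With 1 library left out, members past the threshold numbered 1 to 4 in TMP against TM, 4 to 5 in TMPC against TM, 0 in TMPC against TMP and 3 to 4 between the sites, and genes numbered 1550 to 4885, 3414 to 6390, 0 and 387 to 4789. The 1550 were without TMP replicate 1 and the 387 without orthotopic replicate 2. Fold changes that changed sign ranged from -0.74 to 0.46 for Fosb, -0.0077 to 0.24 for Jund and -0.49 to 0.66 for Atf3 in TMP against TM, and from -0.089 to 0.59 for Fosl2 in TMPC against TM. In TMPC against TMP they ranged from -0.93 to 0.49 for Fosl1, -0.48 to 0.19 for Fosl2 and -0.28 to 1.02 for Egr1. Between the sites they ranged from -1.46 to 0.43 for Fosl1, -0.27 to 0.40 for Fosl2, -0.29 to 1.02 for Egr1 and -0.12 to 0.57 for Atf3. Fosl1 rests on 4 to 6 counts per TM library, which limits the precision of its fold change.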
